A study of Oreolalax rhodostigmatus with 13 samples.

Results

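The 150 unigenes described here had, in every tadpole kept in light for 30 h, a higher level than in any tadpole kept in the dark or exposed for 4 h. They were chosen from the 249088 unigenes (assembled transcripts) of *Oreolalax rhodostigmatus*, a cave-breeding toad with see-through larvae that turn dark when lit. A unigene could be taken if it was above 0 in all 13 libraries with a mean FPKM of at least 1, which left 29350. FPKM counts sequenced fragments relative to transcript length and library size, so it can be compared between unigenes of different length. For each of these a score was formed, the lowest of the 30 h values divided by the highest of all other values, and the 150 unigenes with the highest scores were taken. The values after 30 h therefore chose the members, and every difference between the 30 h group and the other groups is given as a description without a test.

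All tadpoles were wild-caught from a cave pool at Gosner stage 25, an early tadpole stage, and each library came from 1 tadpole. The control group consisted of 4 tadpoles killed at once when they were collected in darkness. The short-term exposed group (n = 6) received 4 h of light. The long-term exposed group (n = 3) received 30 h. Exposed tadpoles were kept in a cage at the lit cave entrance, with a lamp at night, so the effects of light, of the hour of sampling and of captivity cannot be told apart. The labels name skin, eyeball and liver as the tissue, and the study's methods add part of the tail, all pooled in 1 tube. In such a mixture, fewer cells of a type and less RNA per cell cannot be told apart.

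The tissues pooled here do different work. Liver cells make the bulk of plasma proteins, among them albumin, the carrier protein of blood, and fibrinogen, which forms clots. Macrophages take up dead cells, pathogens and old blood proteins through scavenger receptors and break them down in lysosomes, and fibroblasts lay down the collagens and proteoglycans of connective tissue. Tadpoles at this stage still have larval skin and tail, which are later remodelled at metamorphosis.

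Scores of the members ran from 14.7 to 1.96 with a median of 2.32. Of the 150 unigenes, 21 had a score above 4, 39 above 3 and 10 below 2. A score above 1, which says only that no other tadpole reached the lowest 30 h value, was found for 1452 of the 29350 unigenes (4.95%), and the reverse pattern, with every 30 h value below every other value, for 2049 (6.98%). The members are thus the upper end of a common pattern. The members just inside the limit were an aquaporin unigene and 2 without a name in the tables used here, Cluster-29057.128034 and Cluster-29057.105750, with scores of 1.965, 1.959 and 1.958. Those just outside were Cluster-29057.123199, named for a nuclear transcriptional regulator 1-like protein, Cluster-29057.132150 and Cluster-29057.101069, with 1.954, 1.953 and 1.951. The limit of 150 therefore falls where scores change little.

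Names come from the best protein hits in the study's own tables. They list 38 of the members, 20 of them with an informative name and 18 without one, and the other 112 are known here only by their number. Of the 20 names, 14 are hits in amphibians and 6 in other animals. The study's list of 1662 upregulated unigenes, which was chosen on these samples and is not independent evidence, holds 24 of the members (16% of the members and 1.44% of that list). Of the 20 names, 13 come from that list and the other 7 from a list the study chose by correlation with melanin genes in the same samples. Both sources favour unigenes high after 30 h: of the named unigenes that the rule could take, 52 of 53 in the upregulated list and 28 of 34 in the correlation list had a score above 1, against 1 of 77 (1.30%) named only in the part of the general annotation used here. Counts of score and summed FPKM by function, given below, therefore depend on where the names come from. They are no independent evidence for a function.

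The levels of the members after 30 h spread widely. Their mean FPKM in the long-term exposed group ran from 2.98 to 26360 with a median of 11.7, with 15 members above 100 and 65 below 10. Against the control mean, the 30 h mean was 4.97 times as high for the median member, with a range from 2.35 to 57.2 times, and against the 4 h mean it was 6.91 times as high. On the log2(FPKM + 0.1) scale, which understates differences of low unigenes, the median difference was 2.34 for 30 h minus control. It was -0.03 over all 29350 unigenes. For 30 h minus 4 h the medians were 2.89 for the members and 0.01 over all 29350.

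The median FPKM of the members was 2.39, 1.56, 2.10 and 2.24 in control replicates 1 to 4. In the short-term exposed group it was lowest at 0.685 in replicate 5 and highest at 1.92 in replicate 6, with a median over the 6 tadpoles of 1.69. In long-term exposed replicates 1 to 3 it was 11.2, 13.1 and 10.6. The 3 long-term exposed tadpoles were close to each other, while the short-term exposed group was spread mainly by replicate 5.

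**Figure D1:**
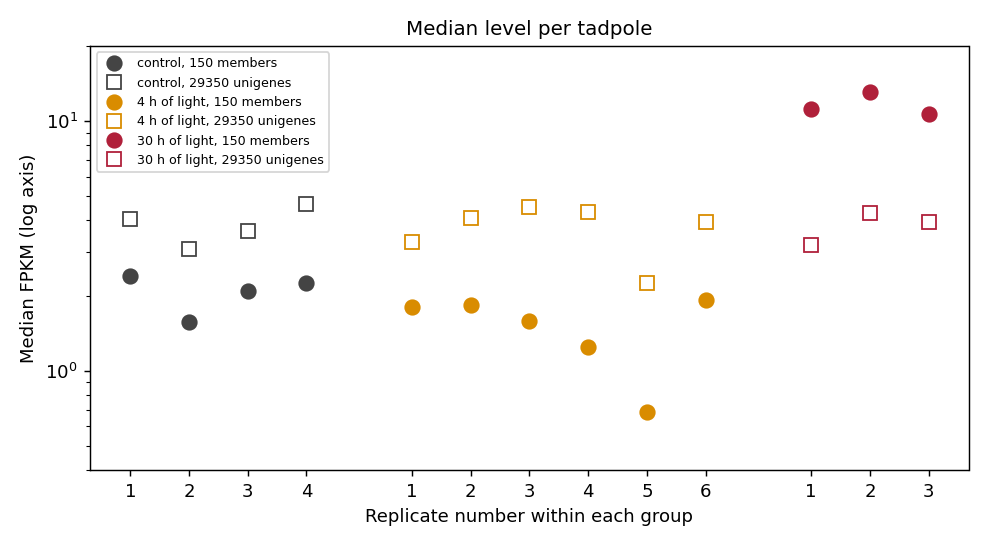
Median FPKM (log axis) of the 150 members (filled circles) and of the 29350 unigenes above 0 in all 13 libraries with a mean of at least 1 (open squares), 1 point of each kind per tadpole; groups are control, 4 h and 30 h of light from left to right. The members lie between 10.6 and 13.1 in the 30 h tadpoles and at 2.39 or less in all others, while the squares stay between 2.24 and 4.64.

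Plasma proteins and liver enzymes, a list formed by words in the names, held the named member with the highest level. Alpha-2-macroglobulin-like protein 1 and cytochrome P450 2G1-like were placed in it by family name alone. Which of the pooled tissues they came from is not known here. Albumin 1 (Cluster-29057.101516, best hit in *Bombina maxima*) had 1283, 2176, 2057 and 852 FPKM in control replicates 1 to 4. In the short-term exposed group its FPKM was 538 at the lowest, 885 at the median and 2492 at the highest, and in long-term exposed replicates 1 to 3 it was 8060, 9352 and 11982. All control values lay within the range of the 4 h group, and the 30 h mean was 6.15 times the control mean. The albumin unigene alone made up 0.779%, 0.899% and 1.15% of all FPKM in the 30 h tadpoles, against 0.0825% to 0.219% in controls.

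Fibrinogen alpha chain (Cluster-29057.103489), a subunit of the clotting protein, had 0.98, 0.28, 1.19 and 0.67 FPKM in control replicates 1 to 4. Its FPKM in the short-term exposed group was 0.07 at the lowest, 2.31 at the median and 5.00 at the highest, and in long-term exposed replicates 1 to 3 it was 41.2, 17.6 and 19.1. In the 4 h group, replicates 1, 2 and 6 lay above every control and replicates 4 and 5 below every control, so the 4 h tadpoles did not move together. A second unigene of this name, Cluster-29057.100665, was not a member, with a score of 1.48 and a 30 h mean of 14.2 FPKM. Its control replicates 1 to 4 had 0.52, 0.38, 0.78 and 0.31 FPKM. Short-term exposed replicates 1 to 6 had 2.62, 4.21, 2.95, 0.9, 0.66 and 7.07. There, every 4 h tadpole except replicate 5 lay above every control, so the 2 unigenes differ at 4 h.

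Alpha-2-macroglobulin-like protein 1 (Cluster-29057.119414), a protease inhibitor of the alpha-2-macroglobulin family, had the highest score of the named members, 6.93. It stood at 0.38, 0.48, 0.14 and 0.31 FPKM in control replicates 1 to 4. In the short-term exposed group it ran from 0.10 over a median of 0.295 to 0.75 FPKM, and in long-term exposed replicates 1 to 3 it was at 5.20, 5.29 and 6.01. Its level was low everywhere, but the 3 long-term exposed tadpoles differed by little.

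Cytochrome P450 2G1-like (Cluster-29057.116077), of an enzyme family that oxidises drugs and steroids, had 0.60, 1.05, 1.24 and 0.51 FPKM in control replicates 1 to 4. It had 0.56 at the lowest, 0.96 at the median and 1.75 at the highest in the short-term exposed group, and 3.79, 3.5 and 3.87 in long-term exposed replicates 1 to 3. Of 22 unigenes in the study's tables whose names fit plasma proteins and liver enzymes, 9 could be taken by the rule. Of these 9, 7 had a score above 1, against 4.95% of all 29350, and 4 were members. The 4 members were named from the upregulated or the correlation list, so this is not an independent count. The summed FPKM of the 22 was 933 to 2286 in controls, 600.3 to 2607 after 4 h and 8268 to 12493 after 30 h, and 13 of the 22 are listed at 0 in some library. Albumin 1 alone made up most of this sum in every tadpole, with 852 to 2176 FPKM in controls and 8060 to 11982 after 30 h. The sum therefore says little about the rest of the list. The list did not move as 1 block. Cluster-29057.108152, named for cytochrome P450 2A6, had 49.6, 62.0, 67.8 and 34.4 FPKM in control replicates 1 to 4. It had 6.5 to 41.6 with a mean of 25.2 after 4 h, and 0.67, 1.76 and 17.4 in long-term exposed replicates 1 to 3, where every 30 h tadpole was below every control. The part of the amount of liver in the tubes in these values was not tested.

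Macrophage and lysosome proteins gave 5 members, against 4 each for plasma proteins and connective tissue. Some chosen words were the names of single members, here VSIG4 and a serine protease, and proteoglycan 4 among others for connective tissue. For this reason no ranking is read from these counts. V-set and immunoglobulin domain-containing protein 4 (VSIG4, Cluster-29057.33213), a complement receptor of tissue macrophages in mammals, had 1.06, 1.11, 3.18 and 2.83 FPKM in control replicates 1 to 4. Its FPKM after 4 h was 1.11 at the lowest, 2.26 at the median and 6.38 at the highest, and in long-term exposed replicates 1 to 3 it was 26.6, 25.6 and 15.3. The 30 h mean was 11.0 times the control mean, and replicate 3 was the lowest of the 30 h tadpoles.

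Stabilin-1 (Cluster-29057.76267), a scavenger receptor of macrophages and sinus endothelium, had 1.35, 1.34, 1.88 and 1.62 FPKM in control replicates 1 to 4. In the short-term exposed group it had 0.67 at the lowest, 1.83 at the median and 2.78 at the highest, and in long-term exposed replicates 1 to 3 it had 11.2, 9.65 and 6.52. The lowest 4 h values belonged to replicates 3 and 4, below all 4 controls.

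Macrophage mannose receptor 1 (Cluster-29057.97589), which takes up glycoproteins, had 5.57, 5.43, 8.62 and 4.90 FPKM in control replicates 1 to 4. Its FPKM after 4 h was 1.37 at the lowest, 4.51 at the median and 13.5 at the highest, and in long-term exposed replicates 1 to 3 it was 57.9, 41.5 and 31.3. These VSIG4, stabilin-1 and mannose receptor members share the order of the 30 h tadpoles, replicate 1 highest and replicate 3 lowest. Each had its highest 4 h value in replicate 1. A second VSIG4 unigene, Cluster-29057.33209, was not a member and differed in both. It had 20.5, 21.5 and 13.7 FPKM in long-term exposed replicates 1 to 3. Its highest 4 h value, 8.29, was in replicate 5.

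The putative serine protease K12H4.7 (Cluster-29057.104916, named after a nematode gene) was in this list only because its own name was among the chosen words. It did not share the order of the VSIG4, stabilin-1 and mannose receptor members either. The protease unigene had 5.83, 8.94, 4.54 and 6.74 FPKM in control replicates 1 to 4, 5.38 at the lowest, 7.62 at the median and 8.39 at the highest after 4 h, and 20.7, 29.8 and 21.7 in long-term exposed replicates 1 to 3. The fifth member, chemokine-like receptor 1-like (Cluster-29057.40387), is named for a receptor of the chemoattractant chemerin in mammals. It averaged 1.67 ± 0.609 FPKM (SD, n = 4) in controls, 1.79 ± 0.712 (SD, n = 6) after 4 h and 8.86 ± 3.15 (SD, n = 3) after 30 h. Its highest 4 h value was in replicate 1. After 30 h, however, replicate 2 was highest, with 7.48, 12.5 and 6.64 FPKM in replicates 1 to 3.

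Of 23 unigenes in the study's tables with names of this list, 15 could be taken by the rule and 14 of these had a score above 1, against 4.95% of all 29350. Of the 15, 12 names come from the upregulated list, 2 from the correlation list and 1 from the general annotation, so this is not an independent count. Those with a score above 1 that were not members included the second VSIG4 unigene (score 1.66), cathepsin K (1.64), cathepsin L1-like (1.60) and cathepsin B (1.36), which are lysosomal proteases, glycoprotein NMB (1.52), found in macrophages and pigment cells, and the co-receptor CD4 (1.48). Hexosaminidase D (0.144), the name from the general annotation, was the exception. It was placed in the list by the word hexosaminidase alone. The summed FPKM of the 23 was 294 to 353 in controls, 304 to 386 after 4 h and 770.1 to 1013 after 30 h. Cathepsin L1-like and cathepsin B, which were not members, made up most of it. Their means were 147 and 85.2 FPKM in controls and 381 and 213 after 30 h. The part of macrophage number in the members' values was not tested.

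Connective tissue proteins gave 4 members. Proteoglycan 4 (Cluster-29057.141947), the lubricant of joints and tendons in mammals, had its best hit in the cat. Its FPKM was 1.5, 0.89, 1.25 and 0.94 in control replicates 1 to 4, 0.03 at the lowest, 0.70 at the median and 1.25 at the highest after 4 h, and 7.69, 9.77 and 11.7 in long-term exposed replicates 1 to 3. WNT1-inducible-signaling pathway protein 2 (WISP2, Cluster-29057.22462), a secreted CCN family protein, had 1.68, 0.51, 1.35 and 1.83 FPKM in control replicates 1 to 4. It had 0.11 at the lowest, 0.61 at the median and 1.60 at the highest after 4 h, and 8.19, 9.27 and 14.6 in long-term exposed replicates 1 to 3. Both had their lowest value of all tadpoles in short-term exposed replicate 5 and their highest in long-term exposed replicate 3.

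The alpha-1 chain of collagen XVI (Cluster-29057.112591), a minor collagen of basement membranes and fibrils, had 3.67, 0.83, 2.34 and 1.36 FPKM in control replicates 1 to 4. After 4 h it had 0.35 at the lowest, 1.99 at the median and 4.31 at the highest, and in long-term exposed replicates 1 to 3 it had 13.97, 18.6 and 16.8. The newt-specific cysteine-rich growth regulator (Cluster-29057.121756, best hit in the newt *Notophthalmus viridescens*) was lower, with 1.53, 0.81, 0.36 and 1.67 FPKM in control replicates 1 to 4. It had 0.07 at the lowest, 0.725 at the median and 1.31 at the highest after 4 h, and 4.58, 5.95 and 6.61 in long-term exposed replicates 1 to 3. Within each of these unigenes, the control and 4 h tadpoles overlapped.

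Members lay next to this unigene in the numbering of the assembly. The numbers 121753, 121754, 121756, 121757 and 121758 of the same cluster are all members, and 121755 between them, named connective tissue growth factor-like, was not, with a score of 1.82 and 37.9, 50.8 and 29.3 FPKM in long-term exposed replicates 1 to 3. In all, 15 members formed 7 runs of consecutive numbers. Such unigenes may be pieces of 1 transcript or close copies between which reads were split, which was not tested. Counts here are of unigenes, so 1 gene may be counted more than once. Of 19 unigenes with names of connective tissue proteins, 6 could be taken by the rule. All 6 had a score above 1, against 4.95% of all 29350, and they include the neighbours 121755 and 121756. The 4 members among them were named from the upregulated or the correlation list, so this is not an independent count. The summed FPKM of the 19 was 19.7 to 35.3 in controls, 14.3 to 32.3 after 4 h and 110 to 131 after 30 h.

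**Figure D2:**
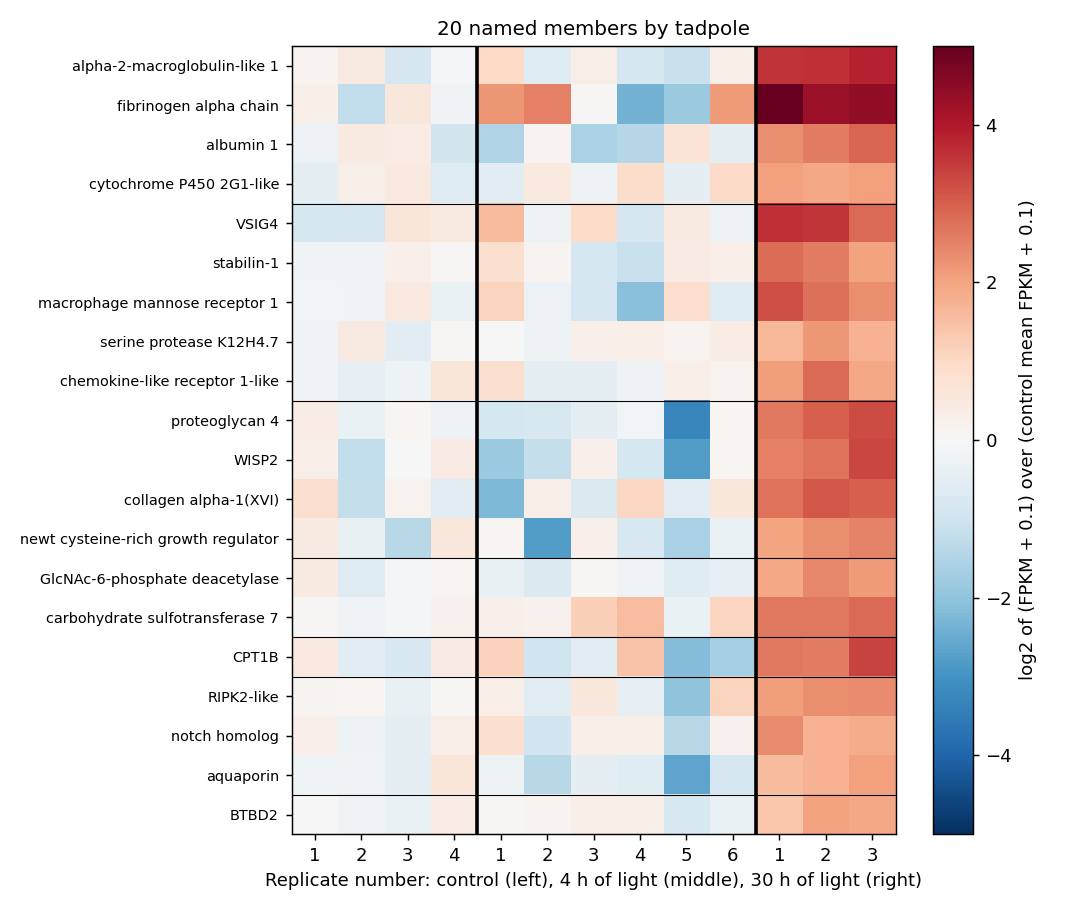
The 20 named members (rows, grouped by function) in the 13 tadpoles (columns: 4 control, 6 after 4 h and 3 after 30 h of light); colour is the log2 of (FPKM + 0.1) over (control mean FPKM + 0.1). The 30 h columns are red in every row, as the rule requires, while the 4 h columns hold both colours, with short-term exposed replicate 5 at 0.03 FPKM for proteoglycan 4 and 0.11 for WISP2.

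Metabolic enzymes gave 3 named members. Carnitine palmitoyltransferase 1B (Cluster-29057.24898), which in muscle admits fatty acids to mitochondria for burning, had 2.17, 0.99, 0.83 and 2.00 FPKM in control replicates 1 to 4. It had 0.26 at the lowest, 0.84 at the median and 4.17 at the highest after 4 h, and 9.88, 9.34 and 16.6 in long-term exposed replicates 1 to 3. A second unigene of the same name, Cluster-29057.85005, was not a member, with a score of 1.73. Named muscle unigenes gave no member: 4 of 13 could be taken and 2 of these had a score above 1, against 4.95% of all 29350. The summed FPKM of the 13 was still 30.8 to 48.7 in controls, 20.2 to 64.4 after 4 h and 102 to 162 after 30 h. Most of the 30 h sum came from these 2, both named muscle-related coiled-coil protein, with 30 h means of 39.6 and 58.7 FPKM. Nebulin (score 0.849) and myosin light polypeptide 6 (0.715) did not separate. The sum therefore says little about muscle unigenes in general. For the 8 unigenes named for fatty acid and energy metabolism, 3 could be taken, all with a score above 1, against 4.95% of all 29350. These 3 include both carnitine palmitoyltransferase 1B unigenes, and the count depends on where the names come from. The sum over the 8 was 8.91 to 17.9 in controls, 7.15 to 29.7 after 4 h and 63.5 to 73.3 after 30 h.

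N-acetylglucosamine-6-phosphate deacetylase (Cluster-29057.132400), an enzyme of amino sugar breakdown, had 2.84, 1.29, 1.93 and 2.19 FPKM in control replicates 1 to 4. It had 1.21 at the lowest, 1.54 at the median and 2.14 at the highest after 4 h, and 8.15, 11.5 and 9.46 in long-term exposed replicates 1 to 3. Carbohydrate sulfotransferase 7 (Cluster-29057.139307), which adds sulfate to glycans, had 2.26, 1.92, 2.05 and 2.54 FPKM in control replicates 1 to 4. After 4 h it had 1.73 at the lowest, 3.71 at the median and 6.67 at the highest, and in long-term exposed replicates 1 to 3 it had 14.2, 14.1 and 16.1. For the sulfotransferase, 5 of the 6 short-term exposed tadpoles lay above every control, and 4 h minus control came to 0.67 on the log2 scale (limma, standard error 0.40, adjusted p = 0.605), which did not pass the test. Of 9 unigenes with names of this list, 6 could be taken. Of these, 5 had a score above 1, against 4.95% of all 29350, a count that depends on where the names come from. The exception, a cytosolic sulfotransferase 2B1-like unigene (Cluster-29057.109682), averaged 64.9 ± 45.3 FPKM (SD, n = 4) in controls, 38.9 ± 38.7 (SD, n = 6) after 4 h and 8.58 ± 5.73 (SD, n = 3) after 30 h. The sum over the 9 overlapped between the groups, with 29.7 to 132 in controls, 21.2 to 107 after 4 h and 46.5 to 65.8 after 30 h.

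Membrane and signalling proteins gave 3 members. Of 205 unigenes with such names, 19 could be taken. A score above 1 was found for 10 of these and not for 9, against 4.95% of all 29350. The summed FPKM of all 205 was 132 to 217 in controls, 142 to 243 after 4 h and 734.6 to 875 after 30 h. Of the 205, 184 are listed at 0 in some library, so most of them could not be taken. Both the count and the sum depend on where the names come from. A fibroblast growth factor receptor 4 unigene (Cluster-29057.118559) was lower after 30 h, with means of 25.0 FPKM in controls, 9.30 after 4 h and 5.68 after 30 h. Aquaporin (Cluster-29057.84656, best hit in the tree frog *Hyla japonica*), a water channel, was the most abundant of the 3 members. It had 25.3, 25.8, 20.7 and 44.5 FPKM in control replicates 1 to 4, 4.60 at the lowest, 17.8 at the median and 24.3 at the highest after 4 h, and 87.5, 96.8 and 121 in long-term exposed replicates 1 to 3. The 4 h tadpoles lay mostly below the controls, with overlap, and the log2 difference was -0.97 (limma, standard error 0.42, adjusted p = 0.415).

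The unigene named for receptor-interacting serine/threonine-protein kinase 2-like (Cluster-29057.95326), a kinase of innate immune signalling in mammals, has its best hit in a bird. It had 1.30, 1.27, 0.87 and 1.22 FPKM in control replicates 1 to 4, 0.21 at the lowest, 1.17 at the median and 2.60 at the highest after 4 h, and 5.27, 6.30 and 6.42 in long-term exposed replicates 1 to 3. The notch protein homolog (Cluster-29057.146323, best hit in a gar) belongs by name to a family of cell contact receptors. It had 1.07, 0.71, 0.59 and 1.14 FPKM in control replicates 1 to 4, 0.27 at the lowest, 1.06 at the median and 1.58 at the highest after 4 h, and 4.99, 3.16 and 3.45 in long-term exposed replicates 1 to 3. Names carried over from such distant animals are weak evidence of what these unigenes encode. The last named member, BTB/POZ domain-containing protein 2 (Cluster-29057.81444), fitted no list, with 11.2, 9.72, 8.69 and 14.2 FPKM in control replicates 1 to 4. It had 6.51 at the lowest, 11.6 at the median and 13.8 at the highest after 4 h, and 29.1, 44.3 and 42.6 in long-term exposed replicates 1 to 3.

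Pigment genes were not among the members, although several had higher means after 30 h. Of the 48 unigenes on the study's pigment list, 9 could be taken by the rule and 0 of them had a score above 1, against 4.95% of all 29350. With so few that could be taken and so low a share, a count of 0 says little about pigment genes. Of the 145 on its growth factor list, 18 could be taken and 6 had a score above 1, again with 0 members. Among 34 named unigenes for light response, DNA repair, clock and pigment, 6 could be taken and only the photolyase-like unigene, named for an enzyme that repairs ultraviolet damage with light, had a score above 1 (1.29). A score below 1 does not mean a flat level. The premelanosome protein unigene, for the fibril protein of melanosomes, had a score of 0.958 and averaged 2.42 ± 1.33 FPKM (SD, n = 4) in controls, 4.5 ± 2.54 (SD, n = 6) after 4 h and 15.1 ± 6.40 (SD, n = 3) after 30 h. The dopachrome tautomerase unigene, for a melanin enzyme, had a score of 0.760 and means of 0.465 FPKM in controls, 0.732 after 4 h and 3.63 after 30 h. The summed FPKM of the 34 was 26.9 to 35.5 in controls, 21.6 to 31.3 after 4 h and 58.2 to 120 after 30 h. Names of RNA processing and translation, 31 in all, had 3 that could be taken, all with a score above 1, and 0 members. Autophagy names had 2 that could be taken, again both with a score above 1 and 0 members. Epidermal names had 1 that could be taken, desmoglein-2 with a score of 0.357, and no unigene was named for an erythrocyte protein. Summed FPKM without overlap between the 30 h tadpoles and the rest was also seen in lists that gave no members. Such sums depend on where the names come from, so nothing is read from them about a function. For RNA processing and translation it was 26.8 to 63.5 in controls, 41.1 to 91.4 after 4 h and 156 to 258 after 30 h. For autophagy it was 3.30 to 6.28 in controls, 2.65 to 6.43 after 4 h and 12.8 to 20.4 after 30 h. For the epidermal names the groups overlapped, with 11.0 to 36.0 in controls, 4.93 to 43.3 after 4 h and 15.3 to 42.1 after 30 h.

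The unigenes that carried most of the members' abundance have no name here. The highest score belonged to Cluster-29057.128427, with 7.85, 11.1, 10.8 and 11.1 FPKM in control replicates 1 to 4, 1.87 at the lowest, 11.9 at the median and 17.6 at the highest after 4 h, and 444, 258 and 477 in long-term exposed replicates 1 to 3. Its neighbour in the numbering, Cluster-29057.128428, came next, with 3.67, 10.5, 17.2 and 12.1 FPKM in control replicates 1 to 4, 2.81 at the lowest, 6.00 at the median and 25.5 at the highest after 4 h, and 274, 235 and 364 in long-term exposed replicates 1 to 3. In both, long-term exposed replicate 3 was highest and replicate 2 lowest.

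Of the 15 members with a 30 h mean above 100 FPKM, only albumin and aquaporin have a name. Further unnamed unigenes are given here because of their level, chosen after their values were seen. Cluster-29057.124223 had 190, 109, 1467 and 76.2 FPKM in control replicates 1 to 4, 89.5 at the lowest, 193 at the median and 1032 at the highest after 4 h, and 56678, 10165 and 12239 in long-term exposed replicates 1 to 3. The first of the 30 h values is the highest in the whole deposited table and made up 5.48% of all FPKM of that tadpole. Cluster-29057.102379 had 2281, 1258, 1742 and 689 FPKM in control replicates 1 to 4, 62.9 at the lowest, 679 at the median and 1332.6 at the highest after 4 h, and 13823, 8859 and 8962 in long-term exposed replicates 1 to 3. Cluster-29057.101752 had 328, 155, 433 and 132 FPKM in control replicates 1 to 4, 0.06 at the lowest, 21.6 at the median and 238 at the highest after 4 h, and 4107, 2130 and 1459 in long-term exposed replicates 1 to 3.

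All members together made up 0.308% to 0.777% of the summed FPKM in control libraries and 0.160% to 0.532% after 4 h. In long-term exposed replicates 1 to 3 they made up 8.96%, 3.83% and 4.07%, and 3.48%, 2.85% and 2.90% without Cluster-29057.124223. The excess of replicate 1 rested largely on that single unigene.

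**Figure D3:**
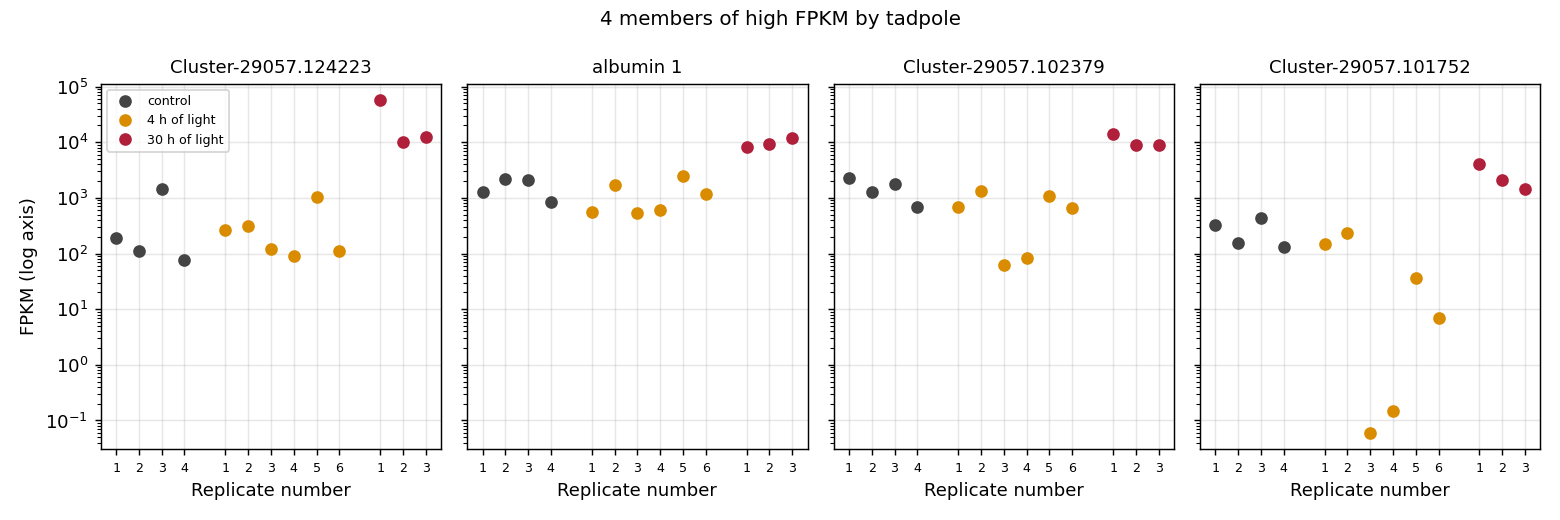
FPKM (log axis) of 4 members in each of the 13 tadpoles, 1 point per tadpole, with control, 4 h and 30 h groups from left to right in each panel. Albumin 1 stays between 538 and 2492 FPKM in all control and 4 h tadpoles, while Cluster-29057.101752 drops to 0.06 and 0.15 in short-term exposed replicates 3 and 4.

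Short-term exposed replicates 3 and 4 stood apart for a subset of the members. In 20 of the 150 members (13.3%) both were below all other 11 tadpoles. The rule keeps the lowest value of a member out of the 30 h tadpoles, so the share over all 29350 unigenes (3.62%) is no fair comparison; among the 1302 other unigenes with a score above 1, to which the same limit applies, it was 90 (6.91%). Stabilin-1 and the mannose receptor were in this subset, and so were 8 of the 15 members above 100 FPKM, Cluster-29057.102379 with 62.9 and 81.7 FPKM among them. Albumin had 538 and 596 FPKM in these tadpoles, below all 4 controls but close to the 561 of short-term exposed replicate 1. Short-term exposed replicate 5 was low in another way: it was the lowest of all tadpoles for 44.0% of the members, against 51.8% of the 1302 other unigenes with a score above 1, so this was not particular to the members. It had the fewest unigenes above 0, 91929. Other 4 h libraries had 122575 to 136138 unigenes above 0, controls 112990 to 134725 and 30 h libraries 140196 to 147363. The study's summary of its reads also lists the 30 h libraries as the deepest. Depth and group therefore cannot be told apart, and its part in the members' values was not tested.

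The 3 long-term exposed tadpoles also differed among themselves. The highest 30 h value was in replicate 1 for 43 members (28.7%), in replicate 2 for 62 (41.3%) and in replicate 3 for 45 (30.0%). Among the 1302 other unigenes with a score above 1 these shares were 21.6%, 45.9% and 32.5%, and over all 29350 they were 17.3%, 49.1% and 33.6%. The rule used these values, and replicate 1 has the lowest median of the 30 h libraries over the 29350 unigenes, so nothing is read from the difference. The ratio of the highest to the lowest 30 h value had a median of 1.57, with a range from 1.04 to 7.31, and was above 3 for 14 members. For all 29350 unigenes the median ratio was 1.82, but the rule, which uses the lowest 30 h value, favours unigenes with close 30 h values. The coefficient of variation of the members had a median of 38.6% in controls, 58.9% after 4 h and 24.4% after 30 h, against 36.3%, 50.9% and 30.6% for the 29350 unigenes, and the rule bears on these values too.

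The rule did not compare the 4 h group with the controls, but the highest value of these groups entered the score. After 4 h of light, 0 of the 150 members passed the test in either direction (limma with Benjamini-Hochberg adjusted p under 0.05 over 147192 unigenes), and the smallest adjusted p was 0.191. The background was low too: 0.0408% of all unigenes tested were called higher and 0.0401% lower, that is 60 and 59 unigenes. At an unadjusted limma p under 0.05, 2 members were higher and 21 lower, 15.3% of the 150, against 7.04% of the 29350 unigenes. The rule limits high control and 4 h values, and some members reach a mean FPKM of 1 only through their 30 h values. The share over the 29350 is therefore no fair comparison, and nothing is read from the difference. All 150 members passed the filter on low values of this test.

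The sign of the 4 h differences was mostly negative. The median log2 difference of 4 h minus control was -0.44 for the members and -0.07 for the 29350 unigenes, and it was below 0 for 124 members (82.7%) against 55.8%. This was not particular to the 150: the 1302 other unigenes with a score above 1 had a median of -0.41, with 82.8% below 0. Unigenes with the reverse pattern, every 30 h value below every other, had a median of 0.14 and 27.9% below 0. The rule limits how high a control or 4 h value of a member can be but not how low, and the 4 h group has more tadpoles and a wider spread. The part of this limit in the sign was not tested.

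**Figure D4:**
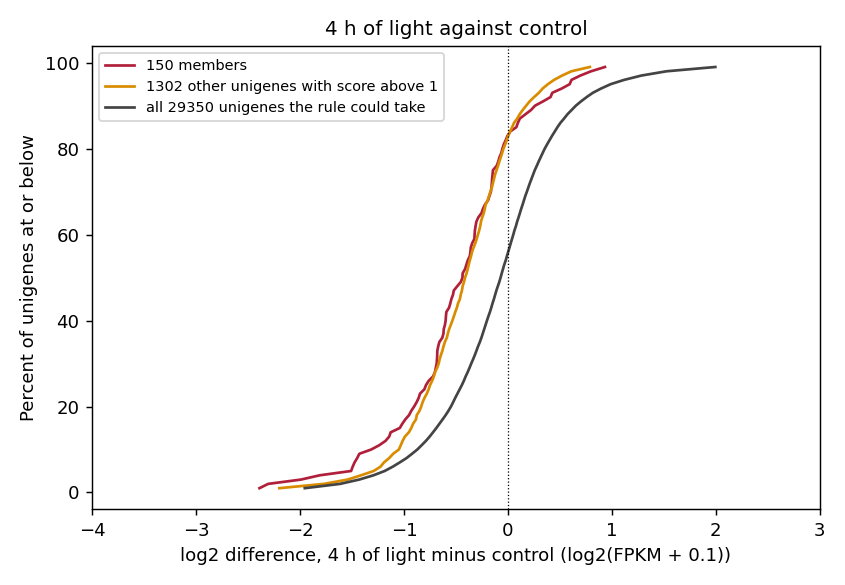
Cumulative share of unigenes (percent, vertical axis) by their log2 difference of 4 h of light minus control (horizontal axis, log2(FPKM + 0.1)), drawn from percentiles 1 to 99. The curves of the 150 members (median -0.44) and of the 1302 other unigenes with a score above 1 (median -0.41) run together, to the left of the curve for all 29350 (median -0.07).

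Complete separation of the 4 h and control groups was seen in 9 members. Every 4 h value was above every control value in 2 members, where 0.845% of the 29350 unigenes had this pattern, and below in 7, where 1.02% had it. The rule limits how high the control and 4 h values of a member can be. The shares over all 29350 are therefore no fair comparison, and nothing is read from the difference. The 2 higher ones were Cluster-29057.143513, an uncharacterised protein with 1.04 to 1.71 FPKM after 4 h and 0.27 to 0.99 in controls, and Cluster-29057.141918, with 4.4 to 9.28 after 4 h and 2.41 to 3.94 in controls. Of the 7 lower ones, Cluster-29057.114230 had 5.12 to 7.93 FPKM after 4 h and 12.3 to 21.0 in controls. These 3 were chosen after their values were seen. In these members the control, 4 h and 30 h tadpoles did not overlap, while in the other 141 the control and 4 h tadpoles did.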

How the data were processed

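The members and lists were chosen with earlier results of these data known. RNA of 13 tadpoles was sequenced as poly-A libraries on an Illumina HiSeq (the labels give 2500, the study's methods another model). The authors removed adapter, poly-N and low-quality reads, assembled the rest de novo with Trinity and deposited FPKM values per unigene, rounded to 2 decimals, with no read counts. Their aligner and counter: not given in the sources used here. All 13 columns were assigned to a sample by its label, and 0 columns belonged to other samples. Counting error could not be computed, since the files give no counts. FPKM sums were 983190 to 1070969 per library. An exact 0 can be a failed estimate.

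Members were found and described in Python 3.11.15 (numpy 2.4.6, pandas 2.3.3, matplotlib 3.10.9). For 4 h against control, limma 3.58.1 in R 4.3.3 was fitted to log2(FPKM + 0.1) of all 13 libraries, with a mean-variance trend, over 147192 unigenes that reached 0.3 FPKM in 3 or more libraries. The fit was tested on simulated data for 4 h against control: of 50 changed unigenes per fold size, 0 were recovered at 2-fold, 17 at 4-fold, 44 at 16-fold and 44 at 64-fold, with 13 false calls among 120406 tested. The changed unigenes were drawn from those with a mean log2(FPKM + 0.1) above 2. Most members were lower than this in control and 4 h tadpoles, so the recovery does not give the power for the members. Unigenes were named only from the study's name tables, parts of which are shortened, and sorted into lists by words in their names. Up to 8 named members per list and up to 10 outside the lists were named, with values in every tadpole for the first 4 of a list, together with the 2 unnamed members of highest score and 3 unigenes on each side of the limit. The alternatives were pseudocounts of 1 and 0.01, other filters, median-of-ratios scaling, a replicate block, other forms of the score and leaving out libraries. No unigene sequences were used here.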

Additional observations from a re-analysis of the deposited data

Results flagged for a closer look

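Single tadpoles lay far from the rest of their group in 4 of 50 comparisons of the named and the abundant unnamed members within the 4 h and the control groups, where the gap to the nearest tadpole was larger than Dixon's 95% critical value. Chance alone gives about 1 in 20 such cases where values are normally distributed. FPKM was used without a log here, so this rate may not hold, and no cause was tested. Cluster-29057.124223, chosen after its values were seen, stood out in both groups. Short-term exposed replicate 5 had 1032 FPKM, with 313 as the next value, and control replicate 3 had 1467 FPKM, with 190 as the next value. Cluster-29057.128427 had 7.85 FPKM in control replicate 1, where the other controls had 10.8 to 11.1. Chemokine-like receptor 1-like had 2.57 FPKM in control replicate 4, where the other controls had 1.24 to 1.46.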

How the results depend on the processing

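Which unigenes are members depends on the rule. Of the 150, 66 were kept with a mean FPKM of at least 5, 67 with a score from group means, 87 without short-term and long-term exposed replicates 1 together, and 88 to 144 when single libraries were left out, lowest without long-term exposed replicate 1 (88) and replicate 3 (96). The count of members called after 4 h was 0 with limma under nearly all alternatives. It was 1 without short-term exposed replicate 1 and 2 with replicate 1 of both exposed groups left out, so the range over single libraries left out was 0 to 1. Over all unigenes tested, the 119 calls became 199 with median-of-ratios scaling, 3 with the replicate block, 4951 without short-term and long-term exposed replicates 1 together, and 70 to 3144 with single libraries left out, highest without short-term exposed replicate 1 and lowest without replicate 3 (70), 4 (74) or 6 (75) of that group. Replicate numbers did not pair the tadpoles: deviations of same-numbered tadpoles correlated at -0.109 to 0.019 over 10 pairs. With short-term exposed replicates 3 and 4 left out together there were 64 calls, and 53 with replicates 3, 4 and 5 left out, both chosen after seeing the data. The causes were not tested.

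The median log2 difference of the members for 4 h minus control, -0.44, kept its sign under every alternative run, but was nearer 0 under some: -0.22 with a pseudocount of 1, -0.22 without short-term exposed replicates 3, 4 and 5 (chosen after seeing the data), -0.29 with the replicate block and -0.53 to -0.31 with single libraries left out. For 30 h minus control the median of 2.34 became 1.79 with a pseudocount of 1, which by construction shrinks low values, and was 2.24 to 2.40 with single libraries left out. Of 508 values of single members under alternatives (466 of the 20 named and 42 of the 2 unnamed ones of highest score), 494 moved by less than 1 SD or kept their side of the threshold, and 0 changed sign. Most of these values are 30 h minus control, where the rule largely sets the sign. The count of sign changes is therefore no support for those differences. With 3 tadpoles after 30 h and no read counts, the precision of low values is unknown.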
